A study of Homo sapiens with 4 samples.

Results

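Matrix proteases and their inhibitors were followed as 10 genes. They were the urokinase gene PLAU and its receptor gene PLAUR, the metalloproteinase genes MMP1, MMP2, MMP7, MMP10 and MMP14, and the inhibitor genes TIMP1, TIMP2 and TIMP3. They are 10 of the 18239 genes that the arrays measured with a probe set carrying a single gene symbol. The members were fixed by name, with earlier results of these data known. The brightest probe set, by its mean on the 4 arrays, stands for each gene. Total RNA of PC9, a human EGFR-mutant lung adenocarcinoma line that depends on this receptor, was hybridized to 2 arrays. Another 2 arrays carried RNA of MTAC-P, a resistant lung cancer line that, by its label, came out of mild exposure to a tyrosine kinase inhibitor. Both lines were cultured in DMEM with serum. The labels name neither the inhibitor nor the parent of MTAC-P, and do not say whether it is a single clone or whether drug was present at harvest. Nothing states that the duplicates are separate cultures, so p-values measure only the spread between these arrays, which may be technical.

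Cells cut through the extracellular matrix with several families of secreted and surface-bound proteases. Urokinase, held at the cell surface by its receptor, turns plasminogen into plasmin, which degrades fibrin and can activate some metalloproteinase precursors. Matrix metalloproteinases are zinc enzymes made as inactive precursors, and the tissue inhibitors of metalloproteinases (TIMPs) block their active site. In lung adenocarcinoma these genes are studied for their part in invasion.

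PLAUR, MMP1 and TIMP1 had higher means in MTAC-P, and on both MTAC-P arrays each of these genes lay above both PC9 arrays. Their fold differences were 1.63 for PLAUR, 1.85 for MMP1 and 1.39 for TIMP1. PLAU, TIMP2 and TIMP3 were bright in both lines, with means that differed by 0.13 or less on the log2 scale. MMP2, MMP7, MMP10 and MMP14 had low values in both lines, none above 5.34, and MMP10 was the one whose mean fell under the value of 4.14 below which genes were called dim. No member was 2-fold apart, compared with 2.02% of all tested genes.

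Of the 10 genes, 9 were bright enough to be tested. None passed limma's adjusted p of 0.05 over all 14970 tested genes, a threshold that 0.0200% of those genes passed, and the lowest adjusted p of a member was 0.120, for PLAUR. At an unadjusted limma p under 0.05 there were 3 members, all higher in MTAC-P, where the share of all tested genes was 18.9% in either direction, 7.76% for higher and 11.1% for lower genes. Both MTAC-P arrays lay above both PC9 arrays for 3 of the 9 members, against 28.3% of all tested genes, and below them for 0, against 24.9%. For either direction the share of all tested genes was 53.2%. Means were higher in MTAC-P for 7 members and lower for 2, while 53.8% of all tested genes had the higher mean there. The median log2 difference of the 9 members was 0.13, and that of all tested genes was 0.031. The members' median was 0.058 without MTAC-P replicate 2 and 0.26 without PC9 replicate 2. Because the members were chosen with earlier results of these data known, setting their counts against these shares does not test the set. With 2 arrays per line, an exact permutation test of a single gene cannot give a 2-sided p below 0.333. Because RNA came from whole cultures, a lower level in every cell and fewer cells with the transcript cannot be told apart.

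**Figure D1:**
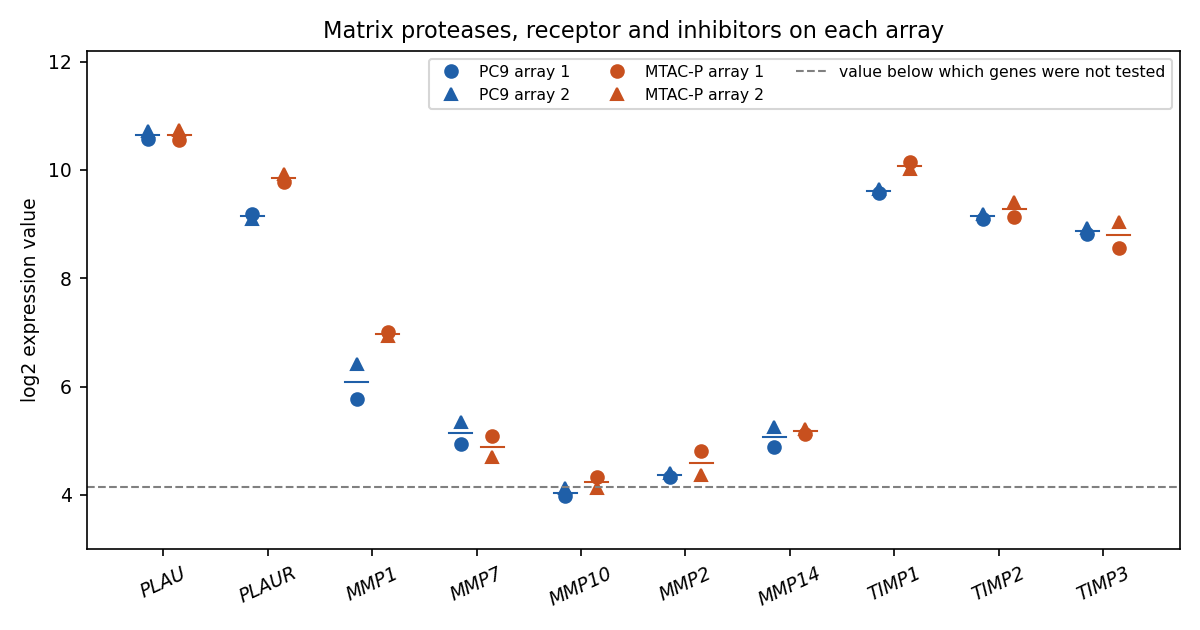
Log2 expression value (y axis) of the brightest probe set of each of the 10 genes (x axis) on the 4 arrays, with circles for array 1, triangles for array 2, blue for PC9, orange for MTAC-P and short lines for the line means. The dashed line is the value of 4.14 below which genes were not tested. The orange points of PLAUR, MMP1 and TIMP1 lie above the blue ones. Probe sets of different genes differ in sensitivity, so heights are to be compared within a gene only.

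The stretches of DNA before the starts of 4 of these genes are shown because PLAUR and TIMP1 had higher means in MTAC-P, while MMP7 and MMP10 are genes of the same family as MMP1 whose arrays overlapped. RefSeq's promoter table on GRCh38.p14 held 7 of the 10 genes, with no entry matched for MMP1, MMP2 and TIMP2. Each sequence is the 250 bases before the start, 5′ to 3′ on the gene's strand. Capitals mark matches to TGANTCA, the core that the AP-1 factors of the FOS and JUN families bind. The motif reads the same on both strands.
PLAUR: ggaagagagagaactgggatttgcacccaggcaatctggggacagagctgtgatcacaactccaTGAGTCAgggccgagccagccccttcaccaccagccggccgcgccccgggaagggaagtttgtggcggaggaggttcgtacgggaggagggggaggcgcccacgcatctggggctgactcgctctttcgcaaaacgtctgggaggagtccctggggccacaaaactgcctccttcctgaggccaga
TIMP1: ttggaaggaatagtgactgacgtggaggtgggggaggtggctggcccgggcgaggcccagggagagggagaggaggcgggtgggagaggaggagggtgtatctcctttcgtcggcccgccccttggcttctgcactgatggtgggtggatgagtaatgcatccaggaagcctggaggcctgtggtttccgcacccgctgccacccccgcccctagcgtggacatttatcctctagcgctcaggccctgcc
MMP7: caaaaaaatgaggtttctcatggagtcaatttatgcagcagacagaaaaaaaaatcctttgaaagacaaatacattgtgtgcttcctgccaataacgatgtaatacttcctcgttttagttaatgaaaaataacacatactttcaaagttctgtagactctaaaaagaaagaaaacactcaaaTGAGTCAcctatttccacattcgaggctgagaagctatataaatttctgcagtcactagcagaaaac
MMP10: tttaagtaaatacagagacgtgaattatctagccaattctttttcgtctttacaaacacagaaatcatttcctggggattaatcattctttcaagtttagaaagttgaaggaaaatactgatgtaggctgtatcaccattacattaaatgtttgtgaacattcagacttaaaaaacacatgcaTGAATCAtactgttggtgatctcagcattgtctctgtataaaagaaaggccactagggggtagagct

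These windows are chr19:43670170-43670419 on the minus strand for PLAUR and chrX:47582186-47582435 on the plus strand for TIMP1. The MMP7 window is chr11:102530748-102530997 and the MMP10 window chr11:102780629-102780878, both on the minus strand. Counting the base just before the start as -1, the match began at -186 in PLAUR and at -67 in both MMP7 and MMP10. PLAUR and MMP7 hold the letters TGAGTCA and MMP10 holds TGAATCA. The motif was found in 3 of the 7 genes, and the windows of PLAU (a pair of starts), MMP14, TIMP1 and TIMP3 held no match. Of all 35116 promoter windows of this length, 6.57% held it. MMP7 and MMP10 also hold TATAAA on their own strand, beginning at -30 and -31, a motif found on either strand in 10.7% of windows. A match is a string of letters and not a measured binding site.

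Among the genes of plasminogen activation, PLAUR encodes the receptor that anchors urokinase at the membrane. Its log2 values were 9.19 and 9.10 in PC9 and 9.78 and 9.93 in MTAC-P. Both MTAC-P arrays were higher, and the gap between the lines was larger than either gap between duplicates, which were 0.084 in PC9 and 0.15 in MTAC-P. Means were 9.15 ± 0.059 in PC9 and 9.85 ± 0.11 in MTAC-P (SD, n = 2 per line). The log2 difference of PLAUR was 0.71 (SE 0.16, 95% interval 0.33 to 1.09, limma adjusted p = 0.120). All 5 probe sets of PLAUR had higher means in MTAC-P, from 0.33 to 0.71, and for 4 of the 5 the arrays did not overlap. Probe sets of one gene are read from the same RNA and may share probes, so they are not replicates. The brightest PLAUR probe set has the suffix x, which in Affymetrix naming marks probes that may bind other transcripts. The one probe set of PLAUR with overlapping arrays had 8.76 and 9.06 in PC9 and 9.01 and 9.46 in MTAC-P.

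PLAU encodes urokinase itself, the ligand of that receptor. PLAU stood at 10.57 and 10.71 in PC9 and at 10.56 and 10.74 in MTAC-P. The arrays overlapped, and the log2 difference was 0.011 (SE 0.16, 95% interval -0.38 to 0.41), an interval that leaves room for a change in either direction. The 3 probe sets of PLAU ranged from -0.10 to 0.071 and all had overlapping arrays. The sign of this small difference turned with median centring, with the mean of the probe sets, without PC9 replicate 1 and without MTAC-P replicate 2, where the values ran from -0.082 to -0.0031.

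Of the other plasminogen activation genes, 13 of 15 listed on the array were bright enough to be tested, and 0 passed limma's adjusted threshold in either direction. At an unadjusted p under 0.05 there were 0 higher and 1 lower, next to 7.76% and 11.1% of all tested genes. Means were higher in MTAC-P for 7 and lower for 6, and the median log2 difference was 0.076, against 0.031 for all tested genes and -0.0031 without MTAC-P replicate 2. SERPINE2, which encodes protease nexin-1, an inhibitor of thrombin and urokinase, had 12.78 and 13.63 in PC9 and 12.66 and 12.64 in MTAC-P. Both MTAC-P arrays of SERPINE2 were lower, but the gap between the PC9 duplicates, 0.85, exceeded the line difference of -0.56 (SE 0.28, limma adjusted p = 0.334). The difference of SERPINE2 was -0.13 without PC9 replicate 2. All 6 probe sets of SERPINE2 were lower in MTAC-P, 5 of them without overlap. SERPINI1, which encodes neuroserpin, an inhibitor of tissue plasminogen activator, differed by -0.62 (SE 0.26, limma adjusted p = 0.265) between means of 4.54 and 3.92, the latter under the dim value, so that it was tested only through its PC9 level. The PC9 duplicates of SERPINI1 were 0.71 apart, and leaving out PC9 replicate 2 gave a difference of -0.26 and leaving out PC9 replicate 1 gave -0.97. VTN, which encodes vitronectin, a matrix protein that the urokinase receptor binds, differed by 0.30 between means of 4.07, under the dim value, and 4.36. VTN was thus tested only through its MTAC-P level. PLAT, the gene of tissue plasminogen activator, is named outside the rule, with its values already known. It had 8.07 and 8.49 in PC9 and 6.90 and 8.26 in MTAC-P, so its lines overlapped and 1 MTAC-P array stood apart. Of the 7 probe sets of PLAT, 5 were lower in MTAC-P, 2 of them without overlap, and 2 were higher.

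**Figure D2:**
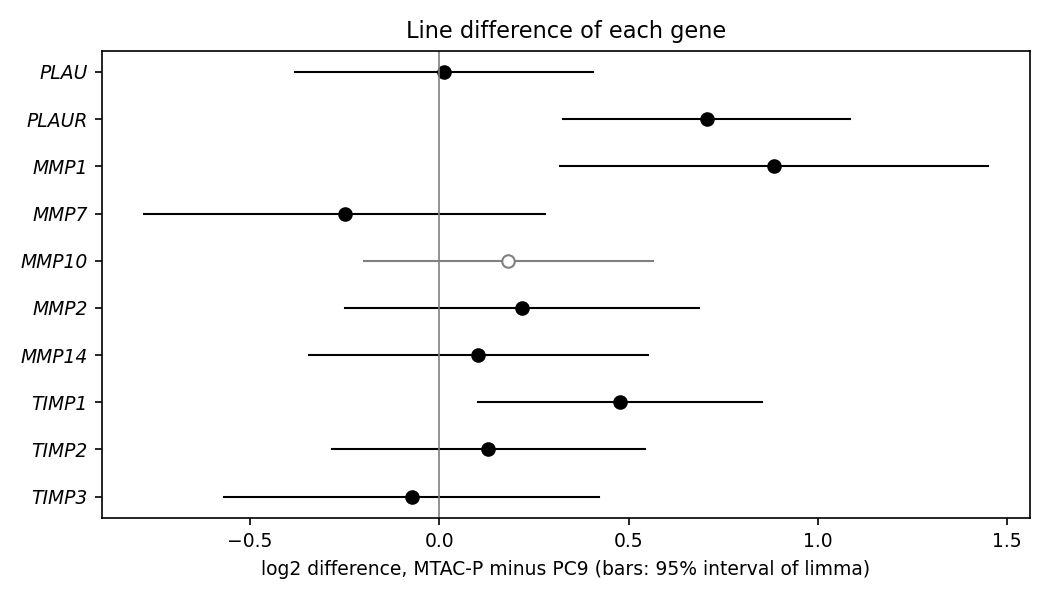
Log2 difference between MTAC-P and PC9 (x axis, positive where MTAC-P is higher) for each of the 10 genes, as points with limma's 95% interval over 2 arrays per line. The intervals of PLAUR, MMP1 and TIMP1 lie above 0 before any adjustment for the number of genes, and the other intervals include 0. MMP10, drawn open and grey, was too dim to be tested and its value is from the fit without that filter.

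MMP1 encodes interstitial collagenase, which cuts fibrillar collagens. The log2 values of MMP1 were 5.77 and 6.41 in PC9 and 7.01 and 6.93 in MTAC-P. Both MTAC-P arrays were above both PC9 arrays, and the PC9 duplicates were 0.64 apart. Means were 6.09 ± 0.45 and 6.97 ± 0.058 (SD, n = 2 per line), a log2 difference of 0.88 (SE 0.23, 95% interval 0.32 to 1.45, limma adjusted p = 0.142). Without PC9 replicate 1 the difference of MMP1 was 0.57, and without PC9 replicate 2 it was 1.20. The other MMP1 probe set was dimmer, at 4.77 and 4.74 in PC9 and 5.23 and 4.77 in MTAC-P, and overlapped between the lines, with a difference of 0.24. The brighter one has the suffix s, which in Affymetrix naming marks probes shared by several transcripts.

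MMP7 encodes matrilysin, a small metalloproteinase of epithelial cells. It had 4.94 and 5.34 in PC9 and 5.09 and 4.69 in MTAC-P. The lines overlapped, with a log2 difference of -0.25 (SE 0.22, 95% interval -0.78 to 0.28) that was -0.047 without PC9 replicate 2. The 4 probe sets of MMP7 ran from -0.70 to 0.39, and the positive end belonged to a probe set under the dim value. At the other end, the arrays did not overlap, with 4.41 and 5.19 in PC9 and 4.22 and 3.97 in MTAC-P. All 3 probe sets of MMP7 above the dim value had the lower mean in MTAC-P.

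MMP10 encodes stromelysin-2, whose substrates include proteoglycans and other metalloproteinase precursors. It has 1 probe set, with 3.97 and 4.12 in PC9 and 4.33 and 4.12 in MTAC-P. Its mean of 4.136 lay just under the dim value of 4.142, so MMP10 was left out of the test, and MMP2, at a mean of 4.48, was the nearest member above that value. Fitted without the filter, MMP10 differed by 0.18 on the log2 scale (95% interval -0.20 to 0.56), with overlapping arrays.

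MMP2 encodes gelatinase A, which cleaves type IV collagen of basement membranes, and MMP14 encodes a membrane-anchored metalloproteinase that activates it. The values of MMP2 were 4.33 and 4.41 in PC9 and 4.80 and 4.37 in MTAC-P, a log2 difference of 0.22 (95% interval -0.25 to 0.69) that was 0.0027 without MTAC-P replicate 1. Of the 4 probe sets of MMP2, 2 were under the dim value, and all 4 overlapped between the lines. MMP14 had 4.88 and 5.26 in PC9 and 5.13 and 5.22 in MTAC-P, a difference of 0.10 (95% interval -0.35 to 0.55) that was -0.088 without PC9 replicate 1. The other 3 probe sets of MMP14 had differences from -0.30 to -0.0038, again with overlapping arrays. Neither gene was separated between the lines on any probe set.

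The array carries 23 probe sets with no intended target, which read background. The 17 with 3 to 19 G or C bases ranged from 3.56 to 4.40 over the 4 arrays and averaged 0.031 higher in MTAC-P. The 6 with 20 to 25 ranged from 4.29 to 7.38 and averaged 0.26 higher there. Of all 23, 8 had a higher mean than MMP10, 5 a higher mean than MMP2, and 1 a higher mean than MMP7, MMP14 or MMP1. No background probe set had a higher mean than PLAU, PLAUR or the TIMP genes. Fold differences of the metalloproteinase genes, MMP1 included, may thus be smaller on this scale than in the RNA. The part of these background differences in the fold differences of the metalloproteinase genes was not tested.

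MMP1, MMP7 and MMP10 belong to a run of neighbouring metalloproteinase genes on chromosome 11, in which the reference places 9 protein-coding genes from MMP7 to MMP13, all of them MMP genes. Of the 9, 4 were tested and 5 were left out as dim. Among the 4 tested, MMP1 was the one whose arrays did not overlap, next to 53.2% of all tested genes. MMP27 differed by 0.17 (-0.015 without MTAC-P replicate 1), MMP7 by -0.25 and MMP13, which encodes collagenase-3, by -0.75, each with overlapping arrays. MMP3, the stromelysin-1 gene, was among the dim ones, with means of 3.81 in PC9 and 4.34 in MTAC-P. Of the dim ones, MMP3, MMP8 and MMP20 were higher and MMP12 lower in MTAC-P without overlap, and MMP10 overlapped. Over all probe sets with a single symbol, dim ones included, 48.4% did not overlap. The probe sets of MMP8 ran from -0.12 to 0.12. MMP27, MMP13, MMP3, MMP8, MMP20 and MMP12 are given for their position and fall outside the naming rule.

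**Figure D3:**
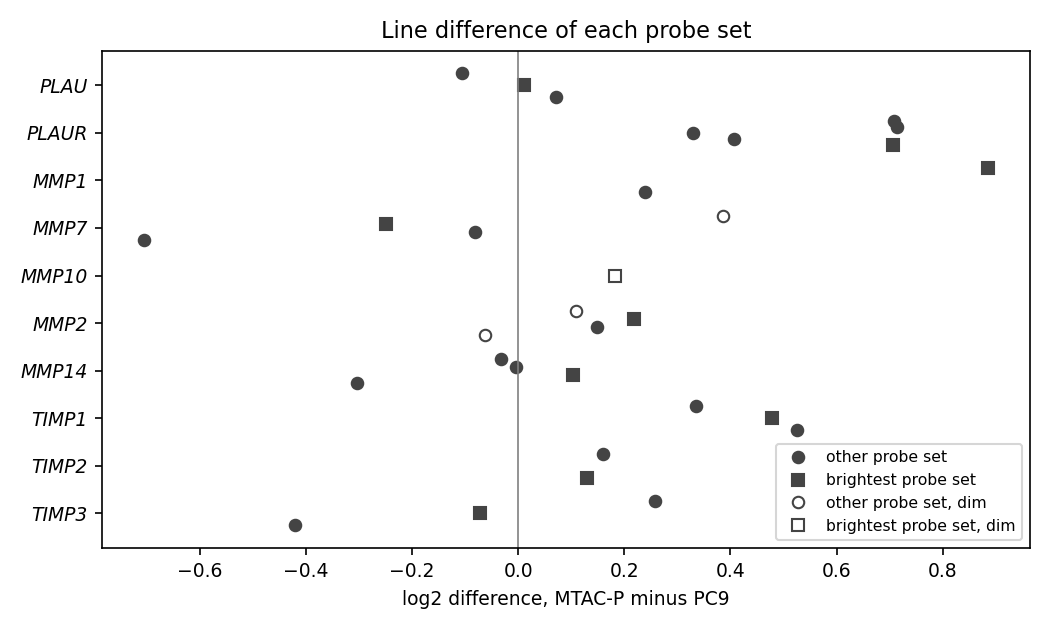
Log2 difference between MTAC-P and PC9 (x axis) for each of the 31 probe sets of the 10 genes (rows), with squares for the brightest probe set of a gene, circles for the others and open symbols for those under the dim value. The points of PLAUR, TIMP1, TIMP2 and MMP1 all lie above 0, and those of MMP7, MMP14, MMP2, TIMP3 and PLAU lie on both sides.

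The TIMP genes encode the main tissue inhibitors of these enzymes. TIMP1, a secreted inhibitor of most soluble metalloproteinases, had 9.57 and 9.64 in PC9 and 10.15 and 10.02 in MTAC-P. Both MTAC-P arrays were higher, and the duplicates of each line were closer to each other than to the other line. The means of TIMP1 were 9.61 ± 0.055 and 10.08 ± 0.094 (SD, n = 2 per line), a log2 difference of 0.48 (SE 0.16, 95% interval 0.10 to 0.85, limma adjusted p = 0.191). The brightest TIMP1 probe set, like that of PLAUR, has the suffix x, which marks probes that may bind other transcripts. A second bright TIMP1 probe set had 9.39 and 9.19 in PC9 and 9.81 and 9.82 in MTAC-P, also without overlap, a difference of 0.53. The remaining probe set of TIMP1, with means of 3.99 and 4.32, overlapped, at 0.34. Leaving out single arrays kept the TIMP1 difference between 0.41 and 0.54.

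TIMP2 inhibits metalloproteinases and also takes part with MMP14 in activating MMP2. It had 9.10 and 9.18 in PC9 and 9.13 and 9.41 in MTAC-P, which overlapped, with a log2 difference of 0.13 (95% interval -0.28 to 0.54). This was -0.013 without MTAC-P replicate 2. The second TIMP2 probe set differed by 0.16.

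TIMP3 is the inhibitor that binds to the matrix and also blocks some ADAM proteases. Its values were 8.81 and 8.92 in PC9 and 8.55 and 9.04 in MTAC-P. The 2 MTAC-P arrays lay on either side of the PC9 arrays, and the log2 difference was -0.073 (95% interval -0.57 to 0.42). It was 0.17 without MTAC-P replicate 1. A second TIMP3 probe set of similar brightness did not overlap, with 8.59 and 8.65 in PC9 and 8.06 and 8.34 in MTAC-P, a difference of -0.42. The dimmest TIMP3 probe set differed by 0.26, so these probe sets gave both signs.

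Over all members, 31 probe sets were listed and 27 were above the dim value. PC9 and MTAC-P arrays were separated for 8 that were higher and 2 that were lower in MTAC-P. Over all 45253 probe sets with a single symbol these shares were 26.2% and 22.2%, or 48.4% for both directions. In a limma fit over all these probe sets 0 of the 31 passed an adjusted p of 0.05, against 0.00221% of all, and 8 had an unadjusted p under 0.05, 6 of them higher in MTAC-P, where the shares of all probe sets were 16.1% and 7.30%. Of the 8 higher ones, 4 were of PLAUR, 2 of TIMP1, 1 of MMP1 and 1, a dim one, of MMP7.

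Among the other matrix metalloproteinases, 11 of 17 genes were bright enough to be tested, with 7 higher and 4 lower in MTAC-P and a median of 0.17. Of the 11, 0 passed limma's adjusted threshold, and 1, a higher one, had an unadjusted p under 0.05, next to 7.76% of all tested genes. That gene, MMP16, which encodes a membrane-type metalloproteinase, had 4.27 and 4.37 in PC9 and 4.80 and 4.74 in MTAC-P, and the differences of its 6 probe sets ran from -0.11 to 0.45. MMP9, gelatinase B, had 6.26 and 6.36 in PC9 and 6.42 and 6.89 in MTAC-P, a difference of 0.34 (SE 0.20) without overlap that dropped to 0.11 when MTAC-P replicate 2 was left out and was 0.58 when MTAC-P replicate 1 was. MMP26 was close to the dim value, with means of 4.22 in PC9 and 4.10 in MTAC-P. The latter was under the dim value, so MMP26 was tested only through its PC9 level. Its difference of -0.12 came to -0.027 when PC9 replicate 1 was left out. The median of this list was -0.0091 without MTAC-P replicate 1.

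The other metalloproteinase inhibitors and cofactors gave 7 tested genes of 9, with 4 higher, 3 lower and a median of 0.046. The median was -0.14 without MTAC-P replicate 1, -0.063 without PC9 replicate 1, -0.039 when PC9 replicate 2 was left out and 0.17 without MTAC-P replicate 2. By limma 0 passed the adjusted threshold and 0 had an unadjusted p under 0.05, next to 18.9% of all tested genes in either direction. BSG encodes basigin, a surface glycoprotein known as an inducer of metalloproteinases. It had 10.65 and 10.64 in PC9 and 10.92 and 11.12 in MTAC-P, a log2 difference of 0.38 (SE 0.16, limma adjusted p = 0.274), and all 6 of its probe sets were higher in MTAC-P without overlap. TFPI2, a secreted Kunitz-type inhibitor of plasmin and other serine proteases, had 10.01 and 9.57 in PC9 and 9.45 and 9.43 in MTAC-P, and its 3 probe sets were all lower without overlap. Its difference of -0.35 was -0.13 without PC9 replicate 1. SPOCK2, a matrix proteoglycan of the testican family, differed by -0.22, with probe sets of both signs. TIMP4 differed by 0.046 with overlapping arrays, by -0.077 without MTAC-P replicate 1, and, like RECK below, is named outside the rule because it belongs with the inhibitors. RECK, a membrane-anchored inhibitor of metalloproteinases, was under the dim value.

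ADAM and ADAMTS genes encode related zinc proteases that shed surface proteins or cut proteoglycans. The list also held BMP1, TLL1, TLL2, MEP1A and MEP1B, which are not ADAM or ADAMTS genes. TLL1 and MEP1B were dim, and BMP1 (0.29), TLL2 (-0.29) and MEP1A (0.19) were tested and enter the counts. Of the 22 tested genes of this mixed list 14 were higher and 8 lower in MTAC-P, with a median log2 difference of 0.12. By limma 0 passed the adjusted threshold, while 2 higher and 4 lower genes had an unadjusted p under 0.05, next to 7.76% and 11.1% of all tested genes. Without PC9 replicate 1 the median was 0.048. ADAM8, a sheddase first known from blood cells, had 5.41 and 5.04 in PC9 and 6.24 and 6.57 in MTAC-P. That is a 2.27-fold difference without overlap (log2 difference 1.18, SE 0.20, limma adjusted p = 0.103), and the 4 probe sets of ADAM8 were all higher, from 0.15 to 1.18. ADAM19 had 4.81 and 5.33 in PC9 and 5.69 and 6.19 in MTAC-P, a difference of 0.87, although only 1 of its 4 probe sets was higher. ADAM12 had 6.28 and 7.21 in PC9 and 6.05 and 5.84 in MTAC-P, a difference of -0.80 that was -0.34 without PC9 replicate 2, and its 5 probe sets ran from -0.97 to 0.16.

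**Figure D4:**
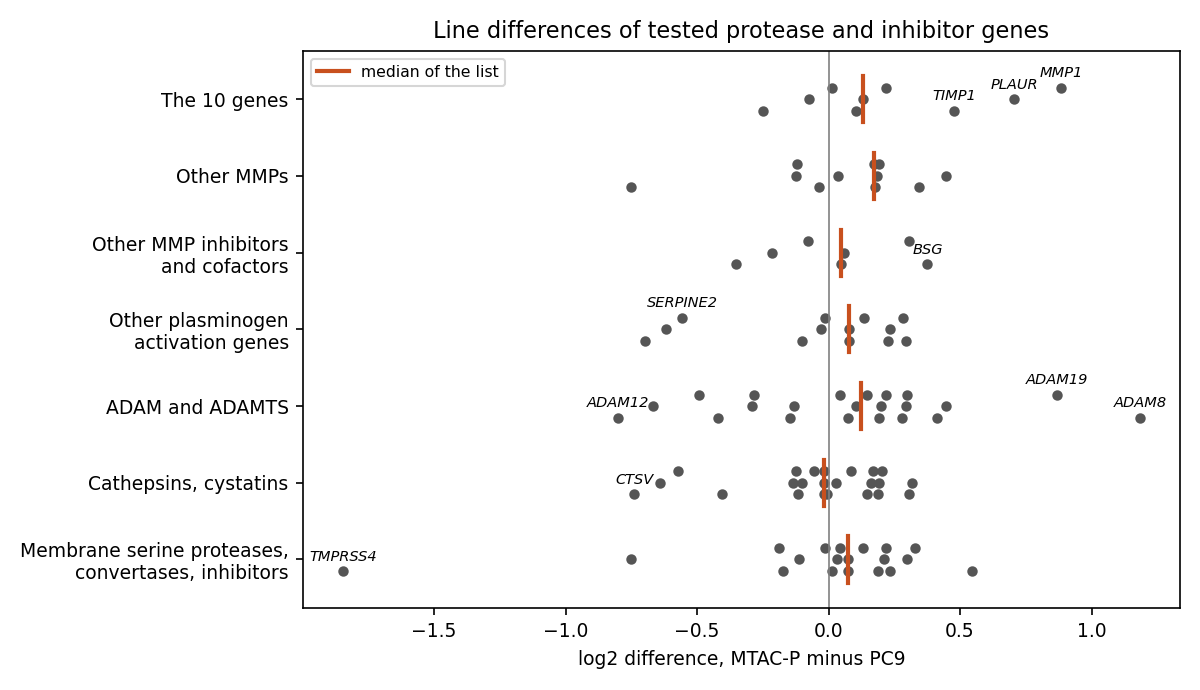
Log2 difference between MTAC-P and PC9 (x axis) of each tested gene (points, spread vertically for legibility) in the 10 genes and 6 lists of related proteases and inhibitors (rows), with the median of each list as an orange bar. The row of ADAM and ADAMTS genes also holds BMP1, TLL2 and MEP1A. The medians lie between -0.017 and 0.17, and TMPRSS4, at -1.85, and ADAM8, at 1.18, are the points farthest from 0.

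Membrane serine proteases, proprotein convertases and their inhibitors gave 19 tested genes of 21, with 13 higher, 6 lower and a median of 0.072. By limma 0 passed the adjusted threshold, and 0 higher and 2 lower genes had an unadjusted p under 0.05, next to 7.76% and 11.1% of all tested genes. The median was -0.014 without PC9 replicate 1 and -0.0013 without MTAC-P replicate 2. TMPRSS4, a transmembrane serine protease of epithelial cells, had 7.65 and 8.04 in PC9 and 6.19 and 5.80 in MTAC-P. The lines were 3.59-fold apart (log2 difference -1.85, SE 0.22, limma adjusted p = 0.0971). Of the 9 probe sets of TMPRSS4, 8 were lower in MTAC-P, 4 of them without overlap. Those other than the brightest were dimmer and ran from -0.62 to 0.097, so the 3.59-fold difference is that of the brightest one alone. PCSK5, which encodes a proprotein convertase, differed by -0.75 between means of 4.72 and 3.97, the latter under the dim value, so that PCSK5 was tested only through its PC9 level. Leaving out PC9 replicate 2 gave a difference of -0.35, and leaving out PC9 replicate 1 gave -1.15. PCSK7, another convertase gene, differed by 0.23 without overlap, with 0.11 when MTAC-P replicate 2 was left out and 0.36 when MTAC-P replicate 1 was.

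Cathepsins, the proteases of lysosomes, and cystatins, their inhibitors, were tested for all 23 genes, with 10 higher, 13 lower and a median of -0.017. The sign of the median turned without PC9 replicate 2, at 0.069, and without MTAC-P replicate 1, at 0.035, and leaving out PC9 replicate 1 gave -0.13. By limma 0 passed the adjusted threshold, and 1 lower gene had an unadjusted p under 0.05, next to 11.1% of all tested genes. This was CTSV, cathepsin V, with 8.62 and 9.04 in PC9 and 8.47 and 7.72 in MTAC-P. Its log2 difference was -0.74 (SE 0.28), -0.37 without MTAC-P replicate 2, and its 3 probe sets were all lower without overlap. CTSF differed by -0.57 and CTSH by -0.41, both without overlap, and without PC9 replicate 2 these were -0.24 and -0.13.

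The medians of all probe sets lay between 4.85 and 4.88 on the 4 arrays. The epithelial markers, 8 of 8, were bright in both lines, from 7.76 to 14.42, with summed log2 levels of 97.04 and 97.61 in PC9 and 95.41 and 96.76 in MTAC-P. The fibroblast markers, which could point to other matrix-producing cells, had no value above 5.22, with sums of 29.42 and 30.63 in PC9 and 28.87 and 29.67 in MTAC-P. Of the 7 blood cell markers 4 had means above the dim value, among them CD68, a lysosomal protein gene, at 8.90 to 9.36, and HBB at 5.18 to 5.41, while PTPRC, the pan-leukocyte marker, was between 3.94 and 4.04. The sums of the blood list were 34.57 and 36.02 in PC9 and 35.97 and 35.69 in MTAC-P. Of the 5 endothelial markers 4 were above the dim value, with no value over 5.95, and their sums were 22.97 and 23.71 in PC9 and 21.68 and 23.70 in MTAC-P. The poly-A spike-in probe sets averaged 0.71 higher in MTAC-P on the log2 scale and were higher on both of its arrays. PLAUR, MMP1 and TIMP1 were also higher on both arrays, by 0.71, 0.88 and 0.48. PLAU, TIMP2 and TIMP3 differed by 0.011, 0.13 and -0.073. Hybridization spike-in probe sets averaged 0.16 higher in MTAC-P. For ACTB the 3′ probe set exceeded the 5′ one by a log2 value of 1.71 and 2.49 in PC9 and 1.51 and 1.75 in MTAC-P. A larger excess of this kind can mark less intact RNA. For GAPDH the 3′ minus 5′ value lay between -0.090 and 0.038. The part of these differences in the results was not tested.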

How the data were processed

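The table that the authors deposited gives a log2 expression value for every probe set on each array. That the scale is log2 was read from the range, 3.32 to 14.6. Background correction, normalization and summarization are not given in the sources used here. Per the labels' protocols, RNA was extracted with Trizol and labelled with a one-colour Agilent kit (Cy3). Agilent Feature Extraction 10.7 is named per the submitters' processing notes, but the probe set names are of Affymetrix type, and how these relate is not settled.

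Of 49386 probe sets, 93 were controls, 45253 had 1 gene symbol in GEO's platform annotation, 1327 had several and 2713 were unnamed here. Symbols were updated to RefSeq on GRCh38.p14, which held 14944 of the 14970 tested genes. Each of 18239 genes was represented by its brightest probe set, and 3269 were left out as dim, with a mean below 4.14, the 25th percentile over the table. MTAC-P was set against PC9 in R 4.3.3 with limma 3.58.1 (lmFit, eBayes with a constant prior variance, 2-sided, no covariate, Benjamini-Hochberg over all tested genes, threshold 0.05). The fit was tested on simulated data in which the added differences were larger than that of any member. It does not show how often a difference of a member's size would pass. The number of arrays limits the precision. SE and 95% intervals are limma's. Python 3.11.15 with matplotlib 3.10.9 drew the figures.

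All 10 members are named. From each other protease or inhibitor list, any gene past the threshold is named, then up to 3 genes without overlap by size of difference. The members and lists were chosen with earlier results of these data known. The alternatives were a replicate block, median centring, a dim filter removed or raised to the 50th percentile, quantile normalization, averaging a gene's probe sets, a variance trend, a robust prior, a pseudocount of 16, a threshold of 0.10 and leaving out each array. A fit over all probe sets was added after seeing the data.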

Additional observations from a re-analysis of the deposited data

How the results depend on the processing

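The count of genes past limma's adjusted threshold, 3 in all, was 1 with the dim filter at the 50th percentile, 1 with the pseudocount, 1 with the fit over all probe sets, 0 with the mean of all probe sets, 77 with a variance trend and 124 at a threshold of 0.10. It ran from 0 to 68 when single arrays were left out, with 0 without MTAC-P replicate 1 or MTAC-P replicate 2 and 68 without PC9 replicate 1. No member passed in any of these settings. With the replicate number as a block, 2079 genes passed and 2 members did, MMP1 (limma adjusted p = 0.00216) and PLAUR (limma adjusted p = 0.00878). In the other alternatives the adjusted p ran from 0.134 to 0.343 for MMP1, from 0.0834 to 0.364 for PLAUR and, for TIMP1, from 0.141 to 0.476 (0.0822 with the block). The block leaves 1 residual degree of freedom in place of 2, and limma's estimated prior degrees of freedom were 30.0 in place of 4.38. The labels do not say that the numbers pair the arrays. The duplicate differences of the lines correlated at r = 0.28 across 14970 genes, which are not independent replicates. Signs turned for 4 members with small differences. Leaving out single arrays moved PLAU between -0.082 and 0.10, MMP14 between -0.088 and 0.29, TIMP2 between -0.013 and 0.27 and TIMP3 between -0.32 and 0.17. With the mean of all probe sets PLAU was -0.0077 and MMP14 -0.059, and with median centring PLAU was -0.0031. The other member differences kept their sign in every alternative that tested them.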

Other observations

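MMP13, the collagenase-3 gene, was chosen after its values were seen. It had 4.75 and 7.36 in PC9 and 4.56 and 6.04 in MTAC-P, so the second array was the higher one in both lines. The gap between the PC9 duplicates was matched or exceeded by 8 of the 14970 tested genes, MMP13 included, and the gap in MTAC-P by 37. The 3 probe sets of MMP13 above the dim value were all higher on the second array of both lines. Its line difference ran from -2.06 to 0.55 when single arrays were left out.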
